A study of Mus musculus with 3 samples.

Results

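The genes described here are the transcription factors that build the enteroendocrine lineage of the gut epithelium and the granins that fill its secretory granules. They were chosen by name for their known role, with earlier results of these data known. They are 9 of the 35824 genes in the count table: the transcription factors Neurog3, Neurod1, Pax4, Pax6, Isl1, Insm1 and Rfx6, and the granins Chga and Chgb. The libraries hold intestinal epithelial cells (IEC) sorted from mouse small intestinal organoids (SIO), which are crypt-derived epithelial structures grown in a gel, after 4 days of co-culture with type-3 innate lymphoid cells (ILC3). All 3 libraries, called A, B and C here, are of this 1 condition (IEC + ILC3), and the labels number them as biological replicates 1, 2 and 3. The SIO came from the ileum of female CD45.1 C57BL/6 mice, for which the labels give an age of 6 to 8 weeks and the study's methods a wider range, and the sources used here do not give the number of donor mice. The ILC3 came from the small intestinal lamina propria of female reporter mice, and the medium held R-spondin, Noggin and epidermal growth factor together with IL-2, IL-7 and IL-15. SIO hold epithelium without the stroma, nerves or vessels of the gut. The labels mark A and B as part of the study's final analysis and C as left out of it. Values are therefore given over A and B first and then with C. No IEC ONLY library is analysed here, and nothing below compares IEC with and without ILC3.

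Enteroendocrine cells are the rare hormone-secreting cells of the gut epithelium. Progenitors of the secretory lineage that switch on Neurog3 for a short time become committed to this fate, and Neurod1, Pax4, Pax6, Isl1, Insm1 and Rfx6 then act in the differentiation of the hormone-producing subtypes. Chromogranins are acidic proteins that condense hormones in dense-core granules, and they are classical markers of mature endocrine and neuroendocrine cells.

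The totals were 17946361 counts for A, 23142849 for B and 28913885 for C. C had the highest total and the fewest genes with at least 10 counts, 11986 against 12549 for A and 12964 for B. RNA came from sorted IEC in bulk, so fewer cells of a type and less RNA per cell cannot be told apart in any value below. Levels are depth-scaled counts with TMM factors (CPM), and levels of different genes are set side by side only as CPM per kilobase of exon. Intervals are exact Poisson or binomial intervals at 95%, and they cover counting error only.

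The reference sequence before and around a RefSeq start of a member was searched for E-boxes, the CANNTG letters that basic helix-loop-helix factors such as Neurog3 and Neurod1 bind. RefSeq windows on GRCm38.p6, from 250 bases before to 50 bases after the start, were found for 7 of the 9 members and give 8 windows, since Pax6 has a pair of them. Pax4 and Insm1 had no window in the table. A RefSeq start can differ from the gene start given below. The windows of Chgb and Rfx6 and of the downstream Pax6 start lie wholly inside the gene by those coordinates. The windows below are those of the bHLH factors and of both granins, whose levels the results turn on. They lie at chr10:62132840-62133139 on the plus strand for Neurog3, at chr2:79456587-79456886 on the minus strand for Neurod1, at chr12:102554691-102554990 on the plus strand for Chga and at chr2:132781392-132781691 on the plus strand for Chgb. Each is read 5′ to 3′ along the gene, with every CANNTG and every TGACGT, read on either strand, in capitals.
Neurog3: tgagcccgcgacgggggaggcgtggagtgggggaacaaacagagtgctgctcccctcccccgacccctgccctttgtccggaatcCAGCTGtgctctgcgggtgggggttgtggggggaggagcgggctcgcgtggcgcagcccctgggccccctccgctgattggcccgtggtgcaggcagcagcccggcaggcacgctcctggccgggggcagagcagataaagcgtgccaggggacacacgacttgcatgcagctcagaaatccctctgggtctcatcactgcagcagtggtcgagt
Neurod1: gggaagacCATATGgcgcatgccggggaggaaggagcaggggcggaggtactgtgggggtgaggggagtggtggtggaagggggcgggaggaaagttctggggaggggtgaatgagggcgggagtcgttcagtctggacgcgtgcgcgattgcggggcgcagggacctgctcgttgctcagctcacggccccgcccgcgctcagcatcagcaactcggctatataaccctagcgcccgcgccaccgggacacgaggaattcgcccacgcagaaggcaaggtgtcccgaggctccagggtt
Chga: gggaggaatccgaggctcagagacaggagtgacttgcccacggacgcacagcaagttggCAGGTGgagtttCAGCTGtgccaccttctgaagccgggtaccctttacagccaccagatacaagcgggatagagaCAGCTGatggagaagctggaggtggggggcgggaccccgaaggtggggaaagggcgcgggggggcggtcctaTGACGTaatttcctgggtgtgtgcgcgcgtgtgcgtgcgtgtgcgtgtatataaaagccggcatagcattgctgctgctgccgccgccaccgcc
Chgb: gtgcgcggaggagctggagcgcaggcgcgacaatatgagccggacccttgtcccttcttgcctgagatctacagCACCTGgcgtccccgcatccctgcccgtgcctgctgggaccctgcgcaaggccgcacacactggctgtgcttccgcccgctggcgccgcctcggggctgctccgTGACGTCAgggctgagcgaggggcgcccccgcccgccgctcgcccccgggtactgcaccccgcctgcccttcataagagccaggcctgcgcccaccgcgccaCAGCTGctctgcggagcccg

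CANNTG was in 7 of the 8 windows, against 72.3% of all 32817 windows of the table, and the window without it was that of the upstream Pax6 start. The narrower form CAGATG was in 0 of the 8 windows, against 17.2% of all windows. Chga held 3 E-boxes, Chgb held 2, and Neurog3 and Neurod1 held 1 each. TGACGT, the core of the cyclic-AMP response element and a search added after the data were seen, was in 5 of the 8 windows, those of Pax6 at both starts, Isl1, Chga and Chgb. It was in 7.5% of all windows. Where the capitals go on with a further CA, as in the Chgb window, the motif stands on both strands at overlapping positions. These matches describe letters in a window, and binding was not measured.

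Of the 9 genes, 6 were detected in every library with at least 10 counts, namely Neurog3, Pax4, Insm1, Rfx6, Chga and Chgb. Neurod1 was at 0 counts in C, Isl1 at 0 in B and C, and Pax6 at 0 in B. Summed over all members the level was 695 CPM in A, 763 CPM in B and 629 CPM in C, or 729 ± 48.0 CPM (SD, n = 2) over A and B and 696 ± 66.8 CPM (SD, n = 3) with C. Chgb made up most of this sum, with 76.0% of the members' counts in A, 70.4% of those in B and 82.7% of those in C. The plot of CPM by gene and library shows how far the levels of the members were apart.

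**Figure D1:**
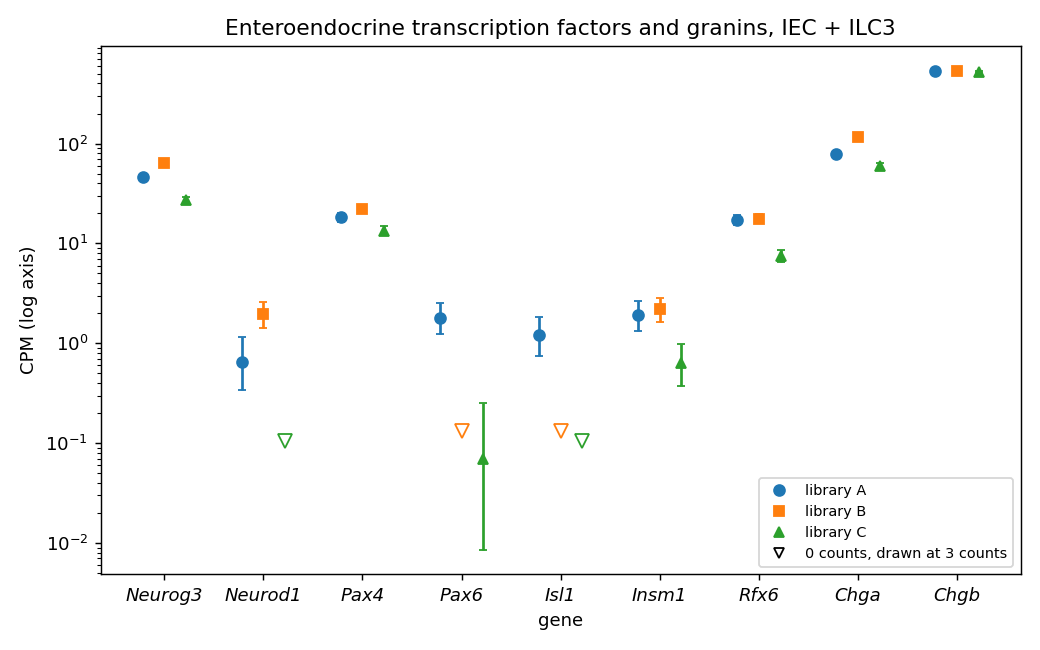
CPM of each of the 9 genes (log axis) in libraries A, B and C of IEC + ILC3, with exact 95% Poisson intervals, and open triangles for 0 counts drawn at the level of 3 counts. Chgb sits near 528 CPM in all 3 libraries, while Neurod1, Pax6 and Isl1 sit at or below 1.96 CPM and each is at 0 in at least 1 library.

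Neurog3, the basic helix-loop-helix factor that commits progenitors to the endocrine fate, was the most abundant of the transcription factors per kilobase. It lies at chr10:62133090-62134763 of GRCm38 on the plus strand. Library A held 847 counts of it, B 1483 and C 777, which gave 46.3 CPM in A (43.2 to 49.5), 64.6 in B (61.4 to 68.0) and 27.2 in C (25.3 to 29.1). B was thus the highest and C the lowest, and no interval overlapped another. The mean was 55.5 ± 13.0 CPM (SD, n = 2) over A and B and 46.0 ± 18.7 CPM (SD, n = 3) with C. Its exons share 273 bases with those of Fam241b on the opposite strand, a gene with 394 counts in A against 630 in B and 639 in C. SMART-Seq2 libraries do not mark strand, so reads from the shared bases cannot be told apart.

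Neurod1, the related factor that is switched on after Neurog3 in endocrine precursors, was low. It lies at chr2:79452521-79456751 on the minus strand. A held 12 counts (0.656 CPM, 0.339 to 1.15), B held 45 (1.96 CPM, 1.43 to 2.62) and C held 0 (at most 0.129 CPM). Its mean of 1.31 ± 0.923 CPM (SD, n = 2) over A and B was 0.872 ± 0.998 CPM (SD, n = 3) with C. Its exons share 201 bases with those of Cerkl on the same strand, a gene with 31 counts in A against 20 in B and 7 in C. How the counting divided reads from those bases was not tested.

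As a share of the counts of both bHLH genes together, Neurod1 took 1.40% in A (0.724 to 2.43), 2.95% in B (2.16 to 3.92) and 0% in C (at most 0.474). Every library therefore had far more counts of Neurog3 than of Neurod1, although the Neurod1 exons are the longer of the pair. Of 717 genes with 40 to 80 counts in A and B together and some in each, 29.1% were at 0 in C, a range of counts chosen after the Neurod1 values were seen. A zero in C was thus frequent among genes of this depth.

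Pax4, a paired-homeobox repressor needed for serotonin- and somatostatin-producing cells, followed Neurog3 among the transcription factors in level per kilobase. It lies at chr6:28442334-28449353 on the minus strand. A held 336 counts (18.4 CPM), B 509 (22.2 CPM) and C 383 (13.4 CPM), with a mean of 20.3 ± 2.70 CPM (SD, n = 2) over A and B and 18.0 ± 4.41 CPM (SD, n = 3) with C. C was the lowest, and the highest library exceeded it by 1.66-fold, close to the median of 1.69-fold over the 11232 genes with at least 10 counts in every library.

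Pax6, a paired-homeobox activator of hormone genes, was seen almost entirely in A. It lies at chr2:105668900-105697364 on the plus strand. A held 33 counts (1.80 CPM, 1.24 to 2.53), B 0 (at most 0.161 CPM) and C 2 (0.0699 CPM). With B set to a floor of 3 counts, A was 13.8-fold higher, a value that leaves out counting error. C stood at 0.0874 times A and B together, with a counting interval from 0.0102 to 0.342. The antisense gene Pax6os1 overlaps Pax6 without sharing exon bases. In A the counts of Pax4 were 10.2 times those of Pax6 (7.11 to 15.0), or 82.4 times per kilobase of exon. The latter depends on the length used, since all Pax6 exons span 11694 bases and its longest transcript 4427. Per kilobase of the longest transcript, A had 13.4 CPM of Pax4 and 0.407 CPM of Pax6, a smaller ratio. In B and C the lower bound of the ratio of counts was 137 and 52.7.

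Isl1, a LIM-homeodomain factor of hormone-producing cells, was detected in A alone. It lies at chr13:116298281-116309689 on the minus strand. A held 22 counts (1.20 CPM, 0.754 to 1.82), and B and C held 0 (at most 0.161 and 0.129 CPM). With B set to the floor of 3 counts, A was 9.20-fold higher, again without counting error. Pax6 and Isl1 were thus detected together in A and were near or at 0 in the rest. Of the 799 genes with 20 to 40 counts in A, 93 (11.6%) were at 0 in B and 88 (11.0%) had at most 2 counts in each of B and C, a range chosen after these values were seen.

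Insm1, a zinc-finger factor of neuroendocrine cells with 1 exon, lies at chr2:146221921-146225020 on the plus strand. A held 35 counts (1.91 CPM), B 50 (2.18 CPM) and C 18 (0.629 CPM). The mean was 2.05 ± 0.188 CPM (SD, n = 2) over A and B and 1.57 ± 0.829 CPM (SD, n = 3) with C, so A and B lay close together and C below both.

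Rfx6, a winged-helix factor that maintains endocrine identity, lies at chr10:51677756-51730432 on the plus strand. A held 312 counts (17.1 CPM), B 406 (17.7 CPM) and C 214 (7.48 CPM), with a mean of 17.4 ± 0.454 CPM (SD, n = 2) over A and B and 14.1 ± 5.72 CPM (SD, n = 3) with C. A and B were again nearly equal, and C was the lowest by 2.32-fold against their mean.

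Of the granins, Chga, or chromogranin A, lies at chr12:102554969-102565028 on the plus strand. A held 1455 counts (79.5 CPM), B 2693 (117 CPM) and C 1726 (60.3 CPM), with a mean of 98.4 ± 26.8 CPM (SD, n = 2) over A and B and 85.7 ± 29.0 CPM (SD, n = 3) with C. B was the highest and C the lowest, the same order as for Neurog3.

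Chgb, chromogranin B or secretogranin 1, was the most abundant member per kilobase and the one that varied least between libraries. It lies at chr2:132781278-132795079 on the plus strand. A held 9664 counts (528 CPM), B 12317 (537 CPM) and C 14881 (520 CPM), a mean of 533 ± 6.11 CPM (SD, n = 2) over A and B and 528 ± 8.31 CPM (SD, n = 3) with C. The highest library was 1.03 times the lowest. Among the 11232 genes with at least 10 counts in every library, 0.303% had a smaller ratio of highest to lowest. By CPM Chgb ranked 247th of all genes in A, 241st in B and 273rd in C.

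Per kilobase of exon and over A and B, the order of the members was Chgb, Chga, Neurog3, Pax4, Rfx6, Insm1, Neurod1, Isl1 and Pax6, and it was the same when the longest transcript gave the length. The mean level was 194 CPM per kilobase for Chgb, 35.7 for Chga, 33.1 for Neurog3, 14.0 for Pax4 and 4.33 for Rfx6. It was 0.660 CPM per kilobase for Insm1, 0.480 for Neurod1, 0.152 for Isl1 and 0.0771 for Pax6. Chga and Neurog3 overlapped in their ranges over A and B, although Chga was the higher in each of the 3 libraries. Insm1 and Neurod1, Neurod1 and Isl1, and Isl1 and Pax6 overlapped as well. The other neighbours in the order did not overlap, also with C.

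A ratio of counts within a library does not depend on the scaling between libraries. Chgb exceeded Chga by 6.64-fold in A (6.29 to 7.02), 4.57-fold in B (4.39 to 4.77) and 8.62-fold in C (8.20 to 9.07), so the balance of the granins differed between any pair of libraries beyond counting error. B had the most Chga for its Chgb and C the least. Exon lengths of the granins are nearly equal, and per kilobase the ratio was 6.68 in A, 4.60 in B and 8.67 in C.

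The ratios of Chga, Pax4 and Rfx6 to Neurog3, chosen after the data were seen, spread less between libraries than that of the granins. Counts of Chga were 1.72 times those of Neurog3 in A (1.58 to 1.87), 1.82 times in B (1.70 to 1.94) and 2.22 times in C (2.04 to 2.42). Counts of Pax4 were 0.397 times those of Neurog3 in A (0.349 to 0.451), 0.343 times in B (0.310 to 0.380) and 0.493 times in C (0.435 to 0.558). Counts of Rfx6 were 0.368 times those of Neurog3 in A (0.322 to 0.420), 0.274 times in B (0.245 to 0.306) and 0.275 times in C (0.236 to 0.321). For Chga the intervals of A and B overlapped and C stood above both, whereas for Rfx6 those of B and C overlapped and A stood above both. For Pax4 the interval of A overlapped those of B and C, which did not overlap each other.

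**Figure D2:**
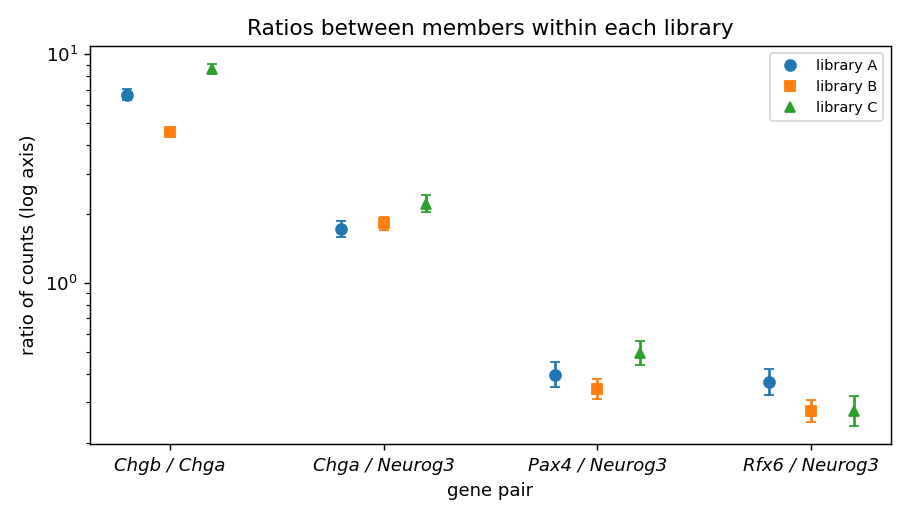
Ratio of counts within a library (log axis) for 4 gene pairs, with exact 95% binomial intervals, in libraries A, B and C. Chgb over Chga runs from 4.57 in B to 8.62 in C, while Chga over Neurog3 stays between 1.72 and 2.22.

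The libraries of the study's final analysis were then set against the one left out. This compares 3 libraries of 1 condition, with 1 residual degree of freedom per gene, so the spread between A and B stands for that of C too. With the quasi-likelihood test of edgeR and Benjamini-Hochberg adjustment over all genes tested, 0 of the 9 members reached an adjusted p under 0.1 in C, against 6.56% of the 13604 genes tested. Before adjustment, 3 members had a p under 0.05, against 22.3% of all genes tested, and DESeq2 called 0 at the same adjusted threshold. All 9 members passed the filter on low counts. Without that filter Neurog3 (edgeR adjusted p = 0.0504) and Neurod1 (edgeR adjusted p = 0.0863) were called lower, beside 13.8% of the 17457 genes then tested.

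The log2 fold change of C against A and B was negative for 9 of 9 members, with a median of -1.22 that was the same with the genes at 0 counts in C set to their bound. Over all genes tested the median was -0.10 and 54.4% were negative. C was also the library with the fewest genes at 10 counts or more, and the part of this in the members' values was not tested. By CPM, C lay below both A and B for 7 of 9 members, against 41.0% of the genes tested, and Pax6 and Isl1 were the exceptions, each with 0 counts in B. The direction for Chgb, the smallest of these changes, turned with a GC trend taken out of the fit.

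Among the transcription factors, Neurog3 was lower in C by 2.04-fold (log2 fold change -1.03 ± 0.35 SE, edgeR adjusted p = 0.145). The log2 fold change of Rfx6 was -1.22 (SE 0.49, edgeR adjusted p = 0.196) and that of Pax4 was -0.60 (SE 0.44, edgeR adjusted p = 0.43). Neurod1, at 0 counts in C, was 12.5-fold lower there with C set to the floor of 3 counts, without counting error (edgeR adjusted p = 0.177). Insm1 had a log2 fold change of -1.70 with a standard error of 1.48 (edgeR adjusted p = 0.522), Isl1 an adjusted p of 0.349 and Pax6 one of 0.512. The standard errors of the genes with few counts were thus wide, and none of these differences passed the test.

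Of the granins, Chga had a log2 fold change of -0.71 (SE 0.34, edgeR adjusted p = 0.254) and Chgb one of -0.04 (SE 0.28, edgeR adjusted p = 0.951). Summed over the 7 transcription factors the level was 87.3 CPM in A, 109 CPM in B and 48.7 CPM in C, so that C stood at 49.7% of the mean of A and B. Summed over both granins it was 608 CPM in A, 654 CPM in B and 581 CPM in C, and C stood at 92.0%, a sum made up mostly of Chgb. Of the members' counts the transcription factors took 12.6% in A (12.0 to 13.1), 14.2% in B (13.7 to 14.8) and 7.74% in C (7.36 to 8.14).

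**Figure D3:**
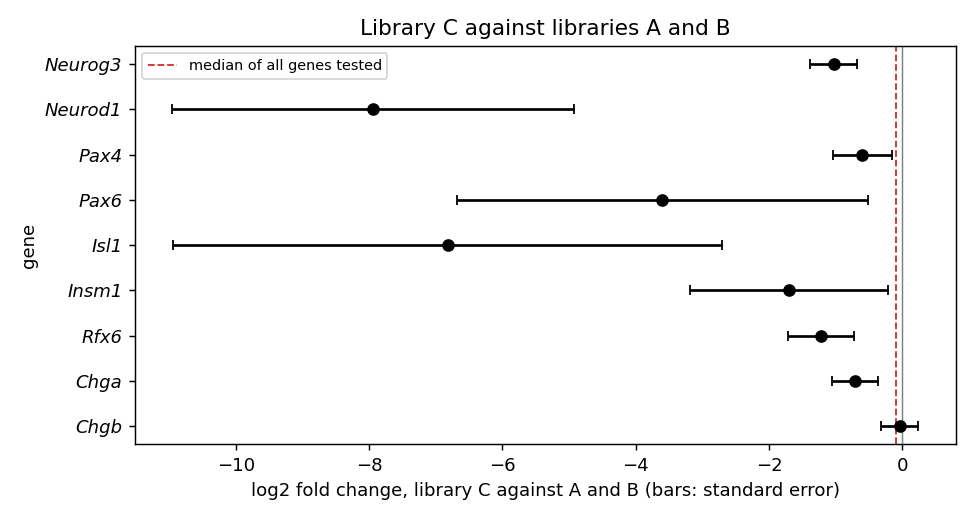
Log2 fold change of library C against A and B for each of the 9 genes (points), with the standard error from edgeR (bars), and the median of all 13604 genes tested (dashed line, -0.10). All points lie below 0, with -1.03 for Neurog3 and -0.04 for Chgb, and the values of Neurod1 and Isl1, which have 0 counts in C, depend on the fit's prior count and are no bounds.

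A and B could be set against each other by value only, since each is 1 library. Of the 9 members, 3 differed by 2-fold or more (Neurod1, Pax6 and Isl1), against 20.5% of the 13524 genes with at least 10 counts in A or B, with counts below 3 set to 3. Neurod1 was higher in B by 2.99-fold, whereas Pax6 and Isl1 were higher in A. Neurog3 was 1.40-fold and Chga 1.48-fold higher in B.

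The other genes of the lineage were taken from 6 lists of 62 genes, of which 50 were tested, and 5 of these 50 passed the same threshold in C, of which 1 was higher and 4 lower, against 6.56% of all genes tested in either direction and 5.20% in the lower one. With a GC trend taken out of the fit, 0 of the 50 were called, against 0.75% of all genes tested in that fit. Among 19 further transcription factors of the lineage, 18 were tested, 1 was higher and 1 lower in C, and the median log2 fold change was -0.31. Sox4, an HMG-box factor of early endocrine progenitors, was at 64.5 CPM in A, 50.2 CPM in B and 162 CPM in C (log2 fold change 1.49 ± 0.29 SE, edgeR adjusted p = 0.0476). Prox1, a homeobox factor of endocrine and tuft cells, had 121 counts in A and 142 in B but 1 in C (edgeR adjusted p = 0.0407), and C stood at 0.00548 times A and B (0.000138 to 0.0308). These called genes moved in opposite directions. Foxa1, a winged-helix factor of the secretory lineages, was at 42.9 CPM in A, 19.8 CPM in B and 18.0 CPM in C. Pdx1, a homeobox factor of the proximal gut, was at 27.5 CPM in A, 19.8 CPM in B and 38.8 CPM in C, and neither gene passed the test.

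Upstream of Neurog3, lateral inhibition through Notch sets which crypt cells enter the secretory lineage. Of 9 genes of this step, all were tested, 0 were higher and 2 lower in C, and the median log2 fold change was -0.16. Dll1, the Notch ligand of secretory progenitors, was at 55.7 CPM in A, 64.9 CPM in B and 20.0 CPM in C (log2 fold change -1.59 ± 0.33 SE, edgeR adjusted p = 0.0546). The receptor Notch1 was at 44.9 CPM in A, 43.2 CPM in B and 15.9 CPM in C (log2 fold change -1.47 ± 0.35 SE, edgeR adjusted p = 0.0744). Both were lower in C than in either other library, as Neurog3 was. Hes1, the repressor that Notch induces, was at 91.7 CPM in A, 100 CPM in B and 168 CPM in C without passing the test, and its antagonist Hes6 was at 166, 207 and 205 CPM. Atoh1, the master factor of the secretory lineage, named here after its values were seen, was at 15.8 CPM in A, 21.0 CPM in B and 16.5 CPM in C.

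The further granins were at or near 0 where Chgb was abundant. Of 5 genes, Scg3, Scg5 and Vgf had 0 counts in all 3 libraries, which allows at most 0.202 CPM in A, 0.161 CPM in B and 0.129 CPM in C. The floor of 3 counts would be 0.164 CPM in A, 0.131 CPM in B and 0.105 CPM in C. Pcsk1n, the precursor of an inhibitor of prohormone convertase, was at 0.547 CPM in A, 1.18 CPM in B and 1.15 CPM in C. Scg2, named after its values were seen, had 0 counts in A and B and 40 in C. Neither of the 2 genes tested was called, and their median log2 fold change was 4.22, or 1.83 with Scg2 set to 3 counts in A and B.

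Of 4 enzymes that process prohormones, 3 were tested and 0 called, with a median log2 fold change of 0.55. Cpe, the carboxypeptidase that trims basic residues, was at 25.6 CPM in A, 17.4 CPM in B and 34.0 CPM in C. The convertase Pcsk1 was at 8.80, 7.67 and 12.1 CPM in the same order, and the amidating enzyme Pam at 9.46, 6.28 and 0.979 CPM. Cpe and Pcsk1 thus had their highest value in C and Pam its lowest.

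Of 12 genes of the granule membrane and of exocytosis, 10 were tested and 0 called, with a median log2 fold change of -0.92. Slc18a1, the vesicular monoamine transporter, was at 30.2 CPM in A, 21.1 CPM in B and 23.9 CPM in C, and Ptprn2, a phosphatase-like granule protein, at 7.38, 19.1 and 7.52 CPM. Ptprn2 was highest in B, as Neurog3 and Chga were.

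Of 13 genes of gut hormones and serotonin synthesis, 8 were tested, and 0 were higher and 1 lower in C. The median log2 fold change was -2.59, or -1.20 with the genes at 0 counts in C set to 3 counts there. Ghrl, which encodes ghrelin, was at 21.2 CPM in A, 53.2 CPM in B and 1.08 CPM in C (log2 fold change -5.10 ± 0.73 SE, edgeR adjusted p = 0.0222). Ddc, the decarboxylase of serotonin synthesis that enterocytes also express, was at 212 CPM in A, 162 CPM in B and 316 CPM in C, and Tph1, its rate-limiting hydroxylase, was at 28.9, 37.8 and 56.1 CPM without passing the test. Gcg, Sst, Nts, Pyy and Insl5 had 0 counts in all 3 libraries. Tac1, which encodes substance P, and Sct, which encodes secretin, both named after their values were seen, were detected in every library, with 166 counts of Tac1 in A against 236 in B and 263 in C, and 56 counts of Sct in A against 136 in B and 131 in C. Cck had 8 counts in A, 14 in B and none in C, while Gip (25 counts) and Ucn3 (27 counts) were seen in A alone.

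**Figure D4:**
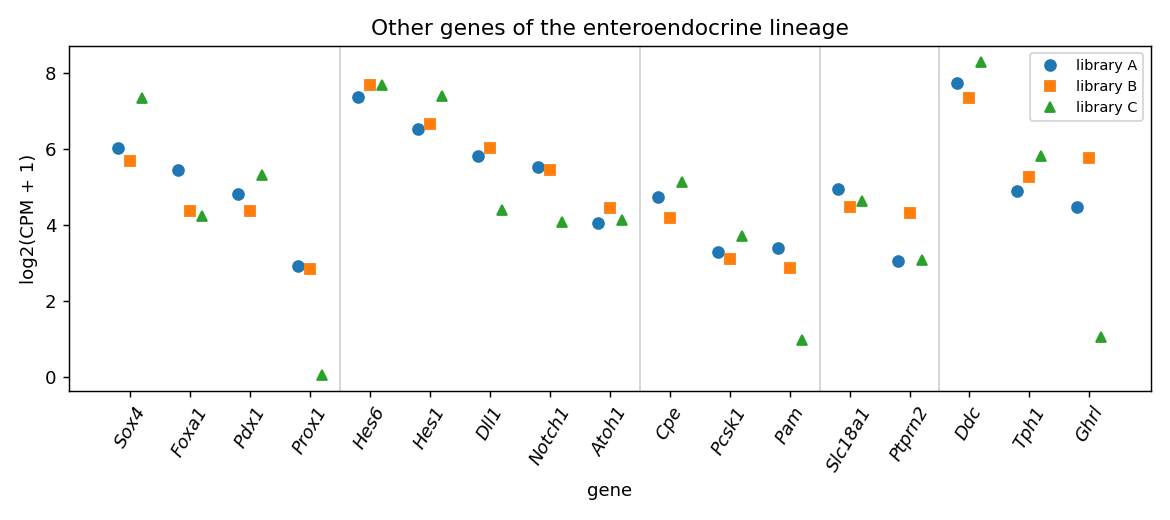
Log2(CPM + 1) of named other genes of the lineage in libraries A, B and C, from left to right transcription factors, secretory commitment and Notch, processing enzymes, granule membrane and exocytosis, and hormones and serotonin synthesis. Dll1, Notch1, Prox1 and Ghrl lie lowest in C, and Sox4 lies highest in C at 162 CPM.

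Some markers of other cells moved with library C as well. The summed level of 8 tuft markers was 54.3 CPM in A, 76.1 CPM in B and 13.2 CPM in C. Of these, 4 of the 7 tested were called lower in C and 5 of the 8 were at 0 there. The sum of 8 goblet markers was 2344 CPM in A, 2915 CPM in B and 1625 CPM in C, with 4 of 8 called lower in C. No marker of either list was called higher in C.

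The sum of 6 Paneth markers was 12416 CPM in A, 16803 CPM in B and 19025 CPM in C, and that of 8 enterocyte markers 5596, 3849 and 4850 CPM, with 0 called in either list. Of 12 ILC3 and lymphocyte markers, 7 were at 0 in all libraries, Il22, Il23r and Cd3e among them, and 0 were called. Ptprc, the gene of the leukocyte antigen CD45, had 1 count in A and 0 in B and C. Of 8 enteric neuron and glia markers, 5 had 0 counts in all libraries, Sox10, S100b, Gfap and Elavl4 among them. The sum of the rest was 17.1 CPM in A, 16.6 CPM in B and 0 CPM in C. Of the 3 tested, 2 were called lower in C, against 5.20% of all genes tested. The islet beta cell markers Ins1, Ins2, Nkx6-1 and Mafa were at 0 in all 3 libraries. The part of these markers in the lower values of Neurog3, Rfx6 and Chga in C was not tested.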

How the data were processed

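IEC sorted from SIO co-cultured with ILC3 were measured by RNA-seq in 3 libraries. The authors trimmed reads with Trimmomatic 0.39, quantified Ensembl transcripts of GRCm38.p6 with Salmon 0.14.1 and collapsed them into genes with tximport. What they deposited are estimated counts per gene, stored as whole numbers. Both versions are also in the submitters' processing notes.

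GENCODE M21 (GRCm38) gave symbols for 35506 of 35824 genes, coordinates, exon lengths and GC content. Lengths were not compared with the authors' release. CPM used TMM factors of edgeR 4.0.16 (R 4.3.3). After filterByExpr, the quasi-likelihood test of edgeR set C against A and B, with Benjamini-Hochberg adjustment and the 0.1 threshold that the study used. The SE of a log2 fold change is its size over the square root of the F statistic. Whether the libraries came from separate cultures is not stated beyond the labels, so the p-values reflect a spread that may be technical. DESeq2 1.42.0, other scalings, filters, thresholds and lengths were alternatives, and removal of trends with length and GC content by loess was added after the data were seen. Tables were handled in Python 3.11.15.

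The members and gene lists were chosen with earlier results of these data known. Named genes are the members, the 3 highest of each list of the lineage by mean CPM over A and B, and genes of these lists called in C. Promoter windows come from RefSeq. A planned description of protein sequences was not run. Some genes that the rule names are left out.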

Additional observations from a re-analysis of the deposited data

How the results depend on the processing

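No member was called in C against A and B under other scalings, stricter filters, a threshold of 0.05, removal of a trend with length or GC content, or the Wald test of DESeq2, and 2 were called without a filter on low counts (Neurog3 and Neurod1). Of 69 tested alternatives of the members' log2 fold changes, 68 were negative and 2 passed the threshold. The exception was Chgb at 0.13 (adjusted p = 0.79 from edgeR) with the GC trend removed, and the cause was not tested. Of the other genes of the lineage, 5 were called, against 11 without a filter, 3 at a threshold of 0.05 and 0 with the GC trend removed. The cause of the last was not tested. With 1 library left out at a time, the summed CPM of the members ran from 662 without replicate 2 to 729 without replicate 3, and other scalings gave 728 to 748. Over all genes, 892 were called, against 2402 of 17457 without a filter, 510 with the length trend removed, 102 with the GC trend removed and 1618 by DESeq2. No paired analysis was possible because all libraries are of 1 group. Neurod1, Pax6, Isl1 and Insm1 had at most 50 counts in any library, which limits what can be said of them.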
